A study of Mus musculus with 9 samples.

Results

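All 37 genes of the mouse mitochondrial genome were present among the 54007 rows of the liver expression table. They were chosen by name only: a row belonged when its Ensembl identifier maps to a symbol starting with mt-. The members were 13 protein-coding genes, 2 ribosomal RNAs (rRNAs) and 22 transfer RNAs (tRNAs), and the classes were kept apart. The values are FPKM, fragments counted on a gene relative to its length and to the size of the library, which is a level per length. The libraries came from liver of C57BL/6 mice at postnatal day 98, and the labels name no allele or transgene. Each of the 3 groups had 3 libraries. Replicates 1, 2 and 4 were control mice. Replicates 1, 2 and 3 of the next group had a high-fat diet (HFD). The third group, replicates 1, 3 and 4, received a high-fat diet together with gavage of the gut bacterium Papillibacter cinnamivorans (HFD+Pc). Mice were assigned to groups of 15 at 6 weeks of age. The labels record no vehicle gavage for the other groups, so gavage and bacterium cannot be told apart. Nor do they state if 1 mouse or several went into a library. The p-values accordingly reflect only how these libraries vary, which may be technical.

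The mitochondrial genome is a small circle that is present in many copies per cell. It is transcribed on both strands as long precursors, and enzymes cut these mostly at the tRNAs that lie between the other genes. Its mRNAs encode core subunits of respiratory complexes I, III and IV and of ATP synthase (complex V), and its rRNAs and tRNAs serve the mitochondrial ribosome that translates them. Everything else the process needs is encoded in the nucleus. Liver is rich in mitochondria and oxidises much of the fat it takes up. In the annotation 28 members lay on the forward strand and 9 on the reverse strand, namely mt-Nd6 and 8 tRNAs. Transcription of the reverse-strand genes starts in the control region beside mt-Tp and reaches mt-Te and mt-Nd6 after it.

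The 6 tRNAs on which the comparisons below turn are shown first, as gene sequences from the GENCODE M21 transcripts of GRCm38, 5′ to 3′, with the anticodon in capitals. A script placed the anticodon in the loop by its neighbouring bases.
mt-Tp, proline, reverse strand: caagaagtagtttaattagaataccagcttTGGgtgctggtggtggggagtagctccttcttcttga
mt-Te, glutamate, reverse strand: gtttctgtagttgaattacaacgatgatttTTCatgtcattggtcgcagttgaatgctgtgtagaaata
mt-Tq, glutamine, reverse strand: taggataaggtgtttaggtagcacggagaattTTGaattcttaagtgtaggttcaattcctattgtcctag
mt-Tm, methionine, forward strand: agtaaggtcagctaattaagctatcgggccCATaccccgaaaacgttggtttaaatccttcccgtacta
mt-Tw, tryptophan, forward strand: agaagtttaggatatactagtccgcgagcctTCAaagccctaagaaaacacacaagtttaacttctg
mt-Ts2, serine, forward strand: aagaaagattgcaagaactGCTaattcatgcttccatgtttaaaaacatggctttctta
The 6 genes span 59 to 71 bases. Reads in so short a gene can come from the tRNA or from a longer precursor that crosses it, and the table does not separate these. Whether counting used the strand is not given in the sources used here, so reads from a gene and from RNA of the other strand cannot be told apart either.

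Several mitochondrial mRNAs have a near-identical nuclear copy, which bears on how far their counts can be read. The search took annotated transcripts with at least 99% identity over at least 100 bases. The 5 genes mt-Co2, mt-Atp6, mt-Co3, mt-Nd3 and mt-Nd4l matched the pseudogenes Gm28661, Gm10925, Gm28437, Gm28438 and Gm10222 over all but 1 to 3 of their bases. Of these 5 pairs, 4 had no mismatch in the matched stretch. The pair with 1 mismatch was mt-Nd3 and Gm28438, which differ by T3C, counted from 1 at the 5′ end of the gene with the mitochondrial base first. Part of mt-Nd4 (876 of 1378 bases) was identical to Gm28439. Part of mt-Co1 (483 of 1545 bases) matched Gm29216 with the single difference A1066T. The stretches around both differences show how little sequence separates gene and copy, with the differing base in capitals.
mt-Nd3, bases 1 to 33: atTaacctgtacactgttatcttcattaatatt
Gm28438, the same stretch: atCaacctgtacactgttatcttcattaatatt
mt-Co1, bases 1063 to 1096: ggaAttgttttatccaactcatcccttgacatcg
Gm29216, the same stretch: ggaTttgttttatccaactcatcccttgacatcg
How reads that match both places were counted is not given in the sources used here. Values of mt-Co2, mt-Atp6, mt-Co3, mt-Nd3 and mt-Nd4l are therefore uncertain as levels of the mitochondrial transcripts. For mt-Nd4 and mt-Co1 this holds in part, over 63.6% and 31.3% of the gene. Their levels, shares and ratios below carry this limit.

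Library depth, as reads recovered from the steps of the FPKM values, was 16278929 to 18640393. All 8 hepatocyte markers were present, with summed FPKM of 50047 to 51244 in control, 33882 to 36634 in HFD and 38182 to 52364 in HFD+Pc libraries. Skeletal and cardiac muscle, another tissue rich in mitochondria, left almost no trace: the 3 muscle markers summed to at most 0.0387 FPKM, and Ckm was at 0 throughout. The 4 adipocyte markers summed to 0 to 0.128 FPKM in control, 5.35 to 23.6 in HFD and 2.33 to 5.95 in HFD+Pc libraries. B and plasma cell markers summed to 19.3 to 26.2, 46.7 to 76.8 and 23.2 to 33.4 FPKM in the same order. Endothelial markers summed to 98.7 to 110, 69.6 to 89.2 and 77.2 to 81.5 FPKM. Stellate markers summed to 115 to 128, 89.5 to 105 and 87.3 to 105 FPKM. Macrophage markers summed to 308 to 414, 271 to 371 and 219 to 323 FPKM. Erythroid markers summed to 241 to 379, 220 to 344 and 161 to 222 FPKM. Sums of cholangiocyte and of T and NK cell markers overlapped between all groups. The part of these cell types in the results below was not tested. HFD replicate 3 lay apart from the other HFD libraries on the second principal component (-3.94 against -17.6 and -18.9), so calls of members that change when it is left out are given without it. In bulk tissue, fewer cells of a type, fewer mitochondrial genomes per cell and less RNA per genome cannot be told apart.

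The mitochondrial mRNAs fell into a high and a low set. The high set held 7 genes, mt-Nd1, mt-Nd2, mt-Nd4, mt-Nd5 and mt-Nd6 (complex I), mt-Cytb (the cytochrome b of complex III) and mt-Co1 (the catalytic subunit of complex IV), at 2797 to 21226 FPKM. mt-Co1 had the highest level, with a mean of 15274 ± 2065 FPKM in control, 17835 ± 3079 in HFD and 16320 ± 418 in HFD+Pc libraries (SD, n = 3 here and below). It ranked 2 among all genes of the table in every library. Below it, mt-Cytb ranked 3 or 4, with 9733 ± 1150, 12308 ± 2001 and 9828 ± 811 FPKM in the same order. mt-Co1 exceeded mt-Cytb in 9 of 9 libraries and mt-Cytb exceeded mt-Nd2 in 8 of 9. The order mt-Nd2 over mt-Nd1 held in only 6 of 9, and mt-Nd1 exceeded mt-Nd6 in 9 of 9. The last 3, mt-Nd6, mt-Nd5 and mt-Nd4, had means of 4124, 4090 and 3963 FPKM over all libraries and were in no fixed order: mt-Nd6 exceeded mt-Nd5 in 3 of 9 and mt-Nd5 exceeded mt-Nd4 in 5 of 9.

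The low set was the run of 6 mRNAs between mt-Co1 and mt-Nd4 on the circle: mt-Co2, mt-Atp8, mt-Atp6, mt-Co3, mt-Nd3 and mt-Nd4l. These encode 2 core subunits of complex IV, both mitochondrial subunits of ATP synthase and 2 membrane subunits of complex I. They stood at 0.801 to 537 FPKM. With the copy's reads added, the 5 of them with a near-identical copy had 51.4 to 1108 FPKM per library. Reads left out because they match both places would be in neither row, so this sum cannot show what they would add. mt-Atp8 was lowest, with 3 reads in its poorest library. It has no annotated copy at the identity used, but it shares 43 bases with mt-Atp6, so reads in that stretch cannot be assigned to 1 of the pair. The plot of levels along the mitochondrial genome shows this gap between mt-Co1 and mt-Nd4. Both rRNAs were also low, at 129 to 236 FPKM for mt-Rnr1 (small subunit) and 101 to 409 for mt-Rnr2 (large subunit). How RNA was selected for the libraries is not given in the sources used here.

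**Figure D1:**
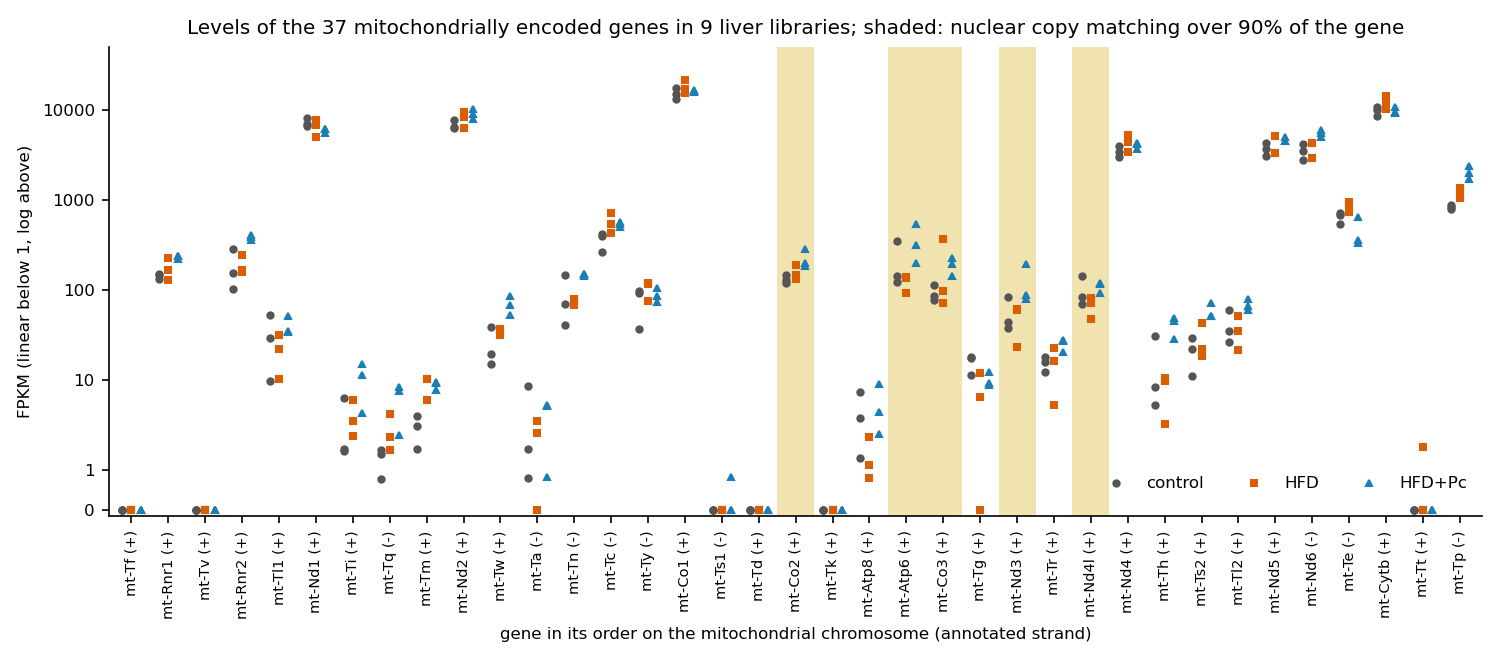
FPKM (vertical axis, linear below 1 and logarithmic above) of the 37 genes in their order on the mitochondrial chromosome, one symbol per library and group; shading marks genes with a nuclear copy matching over 90% of their length. The 7 abundant mRNAs lie at 2797 FPKM or more in every library, and the 6 mRNAs between mt-Co1 and mt-Nd4 at 537 or less.

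Among the 22 tRNAs, 4 averaged at least 100 FPKM: mt-Tp, mt-Te, mt-Tc (cysteine) and mt-Tn (asparagine), all on the reverse strand. The other 12 that were tested lay at 0 to 118 FPKM with at most 141 reads, so their differences rest on few reads. mt-Tf, mt-Tv, mt-Td and mt-Tk had 0 reads in all 9 libraries. A count of 0 allows up to 3 reads (a one-sided 95% limit), or 2.32 to 2.59 FPKM in a gene of 69 bases, a limit that covers counting error only. mt-Ts1 had 1 read in HFD+Pc replicate 1 and mt-Tt had 2 reads in HFD replicate 3. Those 6 tRNAs did not reach 1 FPKM in 3 libraries and were not tested, which left 31 members in the tests, 13 mRNAs, both rRNAs and 16 tRNAs.

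As a share of the library, mitochondrial mRNA did not separate the groups. The 13 mRNAs made up 11.8, 14.2 and 12.5% of summed FPKM in control, 15.2, 12.2 and 17.4% in HFD and 14.8, 13.5 and 14.2% in HFD+Pc libraries. All groups overlapped, and HFD replicate 3 was the highest library. By recovered reads, all 37 members took 5.76 to 8.87% of a library, with Wilson 95% intervals no wider than 0.0138 points to either side (counting error only). The 22 tRNAs together made up 0.605, 0.557 and 0.494% of summed FPKM in control, 0.861, 0.704 and 0.760% in HFD and 1.06, 0.879 and 0.761% in HFD+Pc libraries. For tRNAs, every HFD and HFD+Pc library lay above every control library. This sum rests largely on a few genes. mt-Tp alone had means of 834, 1204 and 2019 FPKM in control, HFD and HFD+Pc libraries, where the 22 tRNAs summed to 2170, 2949 and 3572. Of the 16 tested tRNAs, 9 had a positive and 7 a negative difference in HFD against control, and 14 and 2 in HFD+Pc against control. The rRNA share was 0.0603 to 0.110% in control, 0.0770 to 0.128% in HFD and 0.148 to 0.163% in HFD+Pc libraries. HFD+Pc thus did not overlap either other group for rRNA, while control and HFD overlapped. No p is given for these shares, since they are sums over chosen members.

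The first comparison asked what the high-fat diet changed, HFD against control. No mitochondrial mRNA or rRNA passed, and 1 tRNA, mt-Tm, rose. Of the 10988 genes tested 9.97% passed, 4.61% higher and 5.35% lower (limma on log2(FPKM + 1), Benjamini-Hochberg adjusted p under 0.05). Of the members 0 of 13 mRNAs, 0 of 2 rRNAs and 1 of 16 tRNAs passed. The share of all genes at an unadjusted p under 0.05 was 27.8%, and the members had 0 mRNAs, 0 rRNAs and 4 tRNAs there. limma-voom on the recovered reads called 0 mRNAs, 0 rRNAs and 1 tRNA, against 12.4% of all genes. That tRNA was mt-Tp and not mt-Tm, so no member was called by both methods. The median difference was 0.07 for mRNAs and 0.37 for tRNAs, beside -0.00 for all tested genes. Of the abundant mRNAs, mt-Cytb differed by 0.33 ± 0.16 (SE, adjusted p = 0.207 by limma), mt-Nd4 by 0.32 ± 0.17, mt-Co1 by 0.22 ± 0.16, mt-Nd2 by 0.21 ± 0.18 and mt-Nd1 by -0.19 ± 0.17. mt-Nd5 (0.07 ± 0.19) and mt-Nd6 (-0.04 ± 0.19) were near 0, and the sign of mt-Nd6 turned under 2 other scalings. The low mRNAs ran from -0.95 ± 0.49 for mt-Atp8 to 0.60 ± 0.51 for mt-Co3. That value of mt-Co3 came from 1 library: HFD replicates 1 and 2 had 98.2 and 72.2 FPKM against 78.0 to 114 in control, whereas replicate 3 had 370 FPKM, and without it the difference was -0.11.

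mt-Tm, the tRNA that reads methionine codons and also initiates translation, had 3.10, 1.71 and 4.01 FPKM in control and 10.3, 10.1 and 6.03 in HFD libraries. These levels rest on 4, 2 and 5 reads against 13, 12 and 7, and the groups did not overlap. The difference was 1.33 ± 0.24 with a limma adjusted p of 0.0160, and the call was lost with voom on the reads (adjusted p = 0.0883) and with no filter on low values. mt-Tp came next with 784, 829 and 887 FPKM in control and 1183, 1057 and 1371 in HFD libraries. All 3 HFD libraries lay above all control libraries, yet limma just missed the threshold (0.52 ± 0.15, adjusted p = 0.0540), while voom passed it (adjusted p = 0.0183), as did limma without HFD+Pc replicate 1 (adjusted p = 0.0420). mt-Tw (0.60 ± 0.31, adjusted p = 0.239) passed without control replicate 1 (0.98, adjusted p = 0.0377). Groups that did not overlap were seen for 32.9% of all tested genes (16.5% higher, 16.4% lower), and among the members for 4 tRNAs, mt-Tm, mt-Tp, mt-Te and mt-Tc, all higher in HFD. mt-Tc had 418, 395 and 263 FPKM in control and 712, 541 and 424 in HFD libraries (0.64 ± 0.21, adjusted p = 0.0911). The difference of mt-Tg (glycine), -1.83 ± 0.76 (adjusted p = 0.159), rests on HFD replicate 3, where mt-Tg had no read, and was -0.73 without that library.

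The second comparison, HFD+Pc against HFD, asked what the bacterium by gavage changed on the same diet. No member passed with limma, 0 of 31, where 0.628% of all tested genes passed, 0.182% higher and 0.446% lower. At an unadjusted p under 0.05 there were 15 members, 14 of them higher in HFD+Pc, where 15.6% of all genes had such a p, and voom called 1 member, mt-Tp, against 1.03% of all genes. The median difference was 0.40 for the 13 mRNAs, 0.74 for the 2 rRNAs and 0.93 for the 16 tRNAs, beside 0.01 for all tested genes. Of the 31 members 24 had a positive difference on the log2(FPKM + 1) scale. Groups did not overlap for 13 members higher and 1 lower, where 19.8% of all genes did not overlap, 10.2% higher and 9.56% lower.

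Among the mRNAs, the abundant complex I gene mt-Nd6 had the lowest adjusted p. It had 2940, 2954 and 4321 FPKM in HFD and 5922, 5520 and 5012 in HFD+Pc libraries. The groups did not overlap, and the difference of 0.71 ± 0.19 had an adjusted p of 0.127. Its neighbour on the opposite strand, mt-Nd5, shares 14 bases with it and differed by 0.30 ± 0.19. The other abundant mRNAs stood between -0.31 ± 0.16 for mt-Cytb and 0.19 ± 0.18 for mt-Nd2, and all of these overlapped. Larger values belonged to the low mRNAs: 1.41 ± 0.44 for mt-Atp6 (adjusted p = 0.174), 1.29 ± 0.49 for mt-Atp8, 1.29 ± 0.47 for mt-Nd3, 0.74 ± 0.27 for mt-Nd4l, 0.51 ± 0.18 for mt-Co2 and 0.40 ± 0.51 for mt-Co3. The value of mt-Co3 again turned on HFD replicate 3 and was 1.11 without it. Some copies differed beside them: Gm10925, the copy of mt-Atp6, had 97.3 to 154 FPKM in HFD and 798, 259 and 323 in HFD+Pc libraries.

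For the tRNAs the direction was not uniform. mt-Tp had 2377, 1979 and 1701 FPKM in HFD+Pc against at most 1371 in HFD, a difference of 0.74 ± 0.15 (limma adjusted p = 0.0588, voom adjusted p = 0.020). mt-Te, from the same strand, went the other way with 949, 734 and 852 FPKM in HFD and 650, 333 and 356 in HFD+Pc libraries. Its groups did not overlap, and HFD+Pc replicate 1 stood well above the other 2. The difference was -0.98 ± 0.24 (adjusted p = 0.112), and without HFD+Pc replicate 1 it was -1.28 and passed (adjusted p = 0.0294). mt-Th (histidine) had the largest value, 2.32 ± 0.58 (adjusted p = 0.112), from 4, 12 and 11 reads in HFD to 33, 50 and 55 in HFD+Pc libraries. mt-Tw, mt-Ts2, mt-Tn, mt-Tl1 and mt-Tl2 (the leucine tRNAs) also had HFD+Pc libraries above all HFD libraries, with differences from 0.95 to 1.12. Leaving out HFD replicate 3 moved mt-Tp to 0.84 with an adjusted p of 0.0444, and fitting these groups alone called 1 tRNA, mt-Tn (adjusted p = 0.0212).

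**Figure D2:**
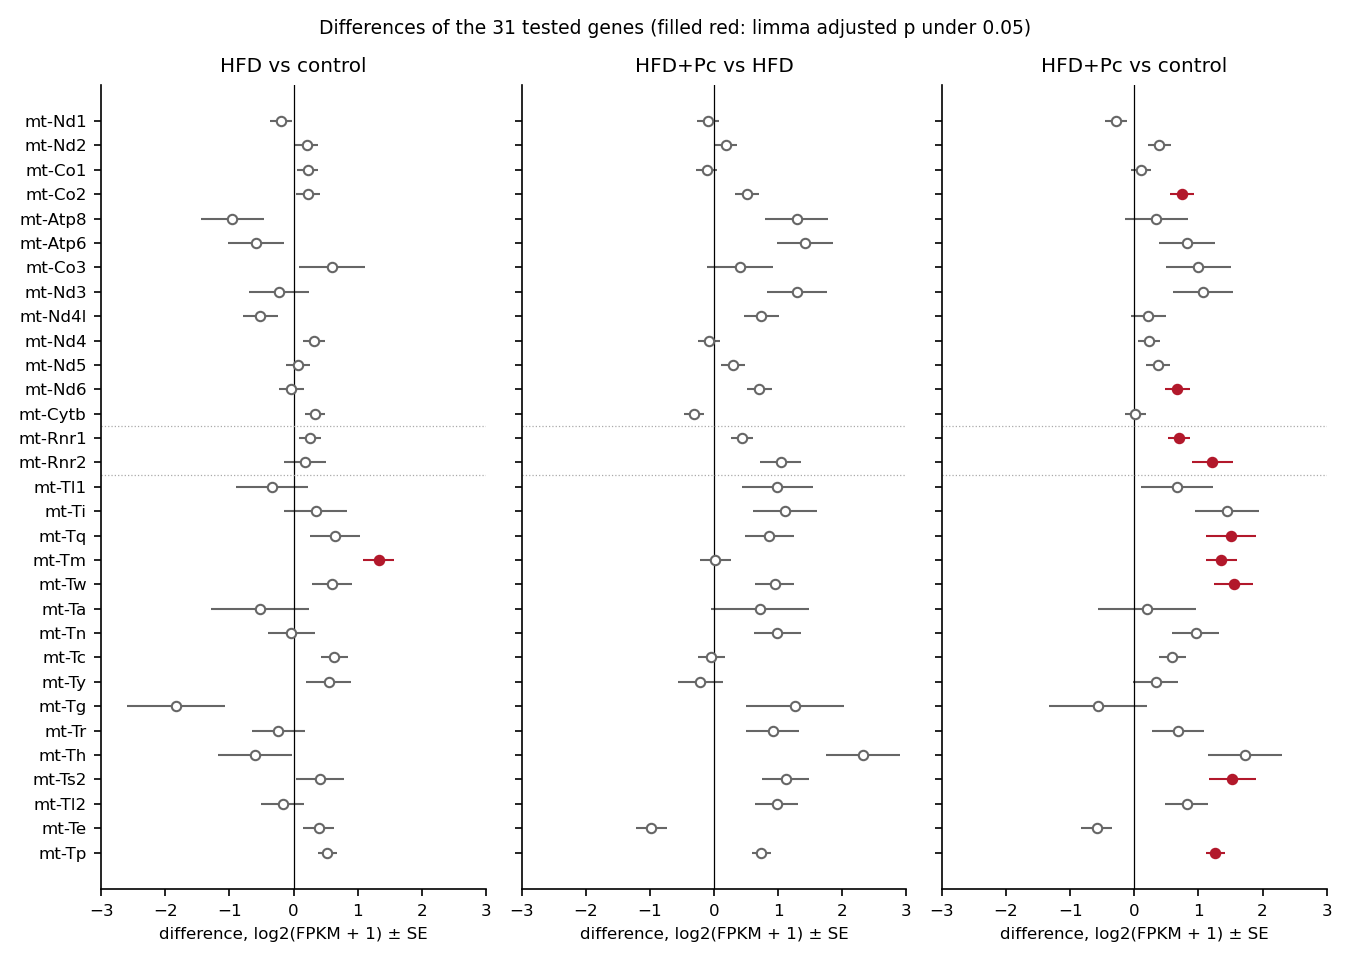
Differences in log2(FPKM + 1) ± SE (horizontal axis) of the 31 tested members, in 1 panel per comparison, with mRNAs, rRNAs and tRNAs from top to bottom; filled red points have a limma adjusted p under 0.05. The left panel has 1 filled point, the middle panel 0 and the right panel 9, all to the right of 0, in HFD+Pc against control.

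The third comparison, HFD+Pc against control, shares its libraries with the other comparisons and is read beside them, not as a further test of them. Here 9 of the 31 members rose and 0 fell: the mRNAs mt-Nd6 and mt-Co2, both rRNAs, and the tRNAs mt-Tp, mt-Tw, mt-Ts2, mt-Tm and mt-Tq. Over all tested genes 23.1% passed, 11.1% higher and 11.9% lower. By class 2 of 13 mRNAs, 2 of 2 rRNAs and 5 of 16 tRNAs passed, and voom called 2, 1 and 4, against 25.4% of all genes. At an unadjusted p under 0.05 there were 16 members, 15 of them higher, against 38.2% of all genes. Median differences were 0.37 for mRNAs, 0.96 for rRNAs and 0.89 for tRNAs, beside 0.01 for all tested genes. The total of 9 fell to 4 without control replicate 4 or without HFD+Pc replicate 3, to 6 without control replicate 2 or HFD+Pc replicate 4, and to 3 with no filter on low values. It was 12 without HFD replicate 3 or with these groups fitted alone, where mt-Co3, mt-Tc and mt-Tr passed as well.

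mt-Nd6, the only mRNA on the reverse strand, had 3461, 4191 and 2797 FPKM in control against 5922, 5520 and 5012 in HFD+Pc libraries. The groups did not overlap, and it rose by 0.67 ± 0.19 (limma adjusted p = 0.0338). This call was lost in 5 of 9 fits that left out 1 library (control replicate 1 or 4, or any HFD+Pc library), with adjusted p up to 0.103. mt-Co2, which carries the copper center that takes electrons from cytochrome c, had 120, 145 and 129 FPKM in control and 184, 201 and 288 in HFD+Pc libraries. It rose by 0.74 ± 0.18 (adjusted p = 0.0198) with no overlap, and the call was lost without control replicate 1 or 4. Its copy Gm28661 had 89.4 to 150 FPKM in control and 113 to 151 in HFD+Pc libraries. mt-Co2 kept its call when the reads of the copy were added.

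The other mRNAs did not pass. mt-Nd1, the first complex I gene after the rRNAs, had 6975, 8172 and 6685 FPKM in control and 6192, 5574 and 6164 in HFD+Pc libraries. It was the only member with groups that did not overlap and a lower mean in HFD+Pc (-0.28 ± 0.17, adjusted p = 0.261). mt-Nd2, the next complex I gene, had 6337, 7789 and 6440 FPKM against 10154, 7915 and 8951, which did not overlap in the other direction (0.39 ± 0.18, adjusted p = 0.133). mt-Nd5 and mt-Co3 likewise did not overlap, with differences of 0.37 ± 0.19 and 1.0 ± 0.51. mt-Co3 (adjusted p = 0.185) passed without HFD replicate 3 (adjusted p = 0.0129) and with these groups alone (adjusted p = 0.0159). Groups that did not overlap were found for 42.8% of all tested genes (22.1% higher, 20.8% lower), and for 15 members higher and 1 lower. The other abundant mRNAs were mt-Co1 (0.10 ± 0.16), mt-Nd4 (0.24 ± 0.17) and mt-Cytb (0.02 ± 0.16, with its sign turning under another scaling). Of the remaining low mRNAs, mt-Nd3 differed by 1.07 ± 0.47, mt-Atp6 by 0.82 ± 0.44, mt-Atp8 by 0.34 ± 0.49 and mt-Nd4l by 0.22 ± 0.27. With the reads of its copy added, mt-Atp6 differed by 1.21 and passed (adjusted p = 0.0365).

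Both rRNAs rose. mt-Rnr1 had 149, 146 and 131 FPKM in control, 226, 129 and 168 in HFD and 222, 236 and 236 in HFD+Pc libraries. HFD+Pc did not overlap control (0.70 ± 0.17, limma adjusted p = 0.0184), while HFD spanned both. mt-Rnr2 had 281, 155 and 101 FPKM in control, 245, 167 and 156 in HFD and 355, 409 and 385 in HFD+Pc libraries. Its control libraries spread widely, with replicate 1 highest. Against control it rose by 1.22 ± 0.32 (adjusted p = 0.0268). This call was lost with voom (adjusted p = 0.0591) and in 5 of 9 fits that left out 1 library (control replicate 2 or 4, or any HFD+Pc library). In HFD+Pc against HFD neither rRNA passed. There mt-Rnr1 differed by 0.44 ± 0.17 with overlap (limma adjusted p = 0.262). mt-Rnr2 differed by 1.04 ± 0.32 without overlap (limma adjusted p = 0.176). The call of mt-Rnr1 was lost in 3 of 9 (control replicate 4, HFD+Pc replicate 3 or 4). The plot by library places these values beside those of mt-Nd6, mt-Co2, mt-Tp and mt-Te.

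**Figure D3:**
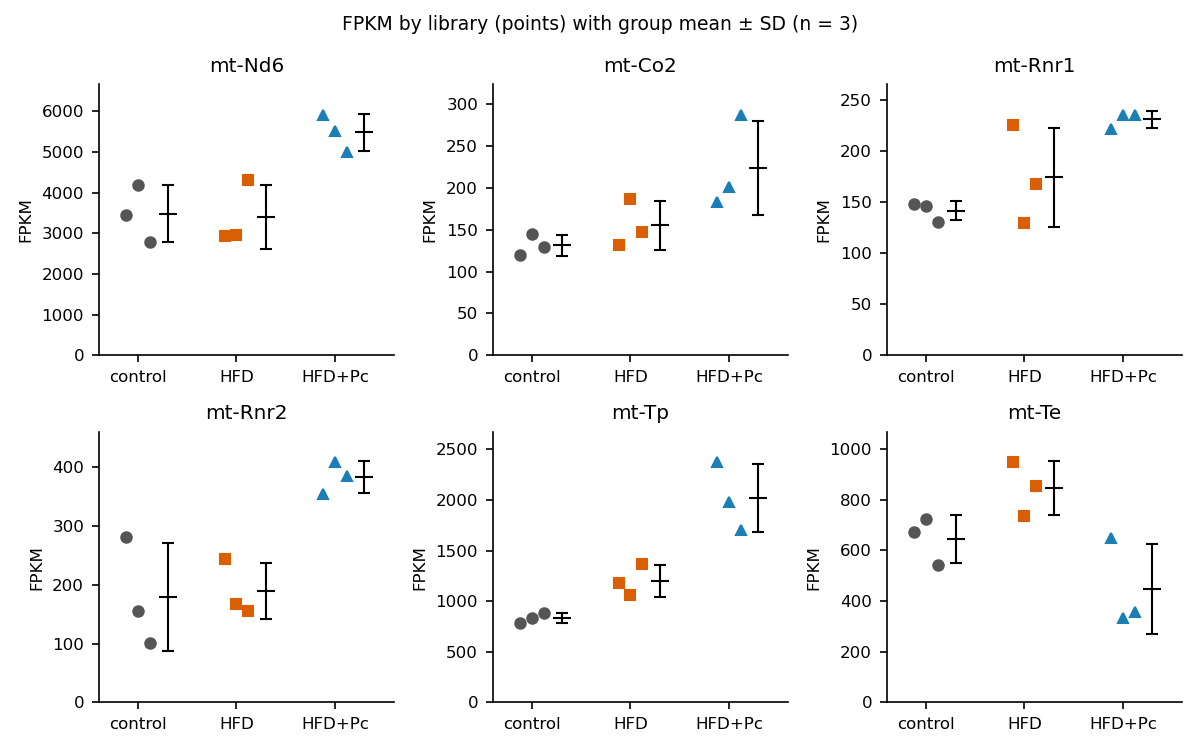
FPKM (vertical axis, from 0) of 6 members in each library, by group, with the group mean ± SD (n = 3) at the right of the points. For mt-Tp every HFD+Pc library (1701 to 2377 FPKM) lies above every HFD library and every HFD library above every control library (784 to 887), and for mt-Te the HFD+Pc libraries are the lowest except replicate 1.

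mt-Tp had the lowest adjusted p of all members in this comparison. From 784, 829 and 887 FPKM in control it rose to 2377, 1979 and 1701 in HFD+Pc libraries, by 1.26 ± 0.15 (limma adjusted p = 0.00148, voom adjusted p = 0.000108). Reads behind these values were 983, 944 and 1075 against 2785, 2223 and 1925. The call held in all 9 fits that left out 1 library and in all 11 other settings. mt-Tw, the tRNA for tryptophan, had 39.1, 19.3 and 14.9 FPKM in control and 86.2, 67.7 and 53.0 in HFD+Pc libraries (1.55 ± 0.31, adjusted p = 0.00929), and held in the same 20 fits. mt-Tp and mt-Tw were the members for which no fit lost the call in this comparison.

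The other tRNAs that passed rest on fewer reads. mt-Ts2, a serine tRNA without a full D arm, had 24, 11 and 31 reads in control and 53, 70 and 51 in HFD+Pc libraries (1.53 ± 0.37, adjusted p = 0.0192). This call was lost without control replicate 1, control replicate 2 or HFD+Pc replicate 3, with adjusted p up to 0.0697, and with no filter. mt-Tm had 4, 2 and 5 reads against 11, 9 and 11 (1.35 ± 0.24, adjusted p = 0.00631, voom adjusted p = 0.0564). mt-Tq had 2, 2 and 1 reads against 3, 9 and 10 (1.51 ± 0.39, adjusted p = 0.0237), and its call was lost with voom and in 5 of 9 fits without 1 library (any control library, HFD+Pc replicate 3 or 4). None of these 3 overlapped between the groups. At such counts the error is large: 1 read has a two-sided exact Poisson 95% interval of 0.0253 to 5.57 reads, for counting error only. Among the tRNAs that did not pass, mt-Th had 38, 6 and 10 reads in control and 33, 50 and 55 in HFD+Pc libraries (1.73 ± 0.58, adjusted p = 0.0607, voom adjusted p = 0.0244). Without control replicate 1, its high control library, mt-Th passed with 2.41 (adjusted p = 0.0186), as did mt-Tn with 1.44 (adjusted p = 0.00715) and mt-Ti (isoleucine) with 1.93 (adjusted p = 0.0382). mt-Ti also passed without HFD+Pc replicate 4 (adjusted p = 0.0338).

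mt-Te stood out for its direction in this comparison as well. Its 671, 722 and 540 FPKM in control compare with 650, 333 and 356 in HFD+Pc libraries, which overlap through HFD+Pc replicate 1 (-0.59 ± 0.24, adjusted p = 0.108). Without that library mt-Te fell by 0.89 and passed (adjusted p = 0.0102). mt-Tg was the other tRNA with a negative value (-0.57 ± 0.76), at 8.77 to 18.1 FPKM in control and HFD+Pc libraries. The remaining tRNAs, mt-Tl1, mt-Tl2, mt-Ta (alanine), mt-Tc, mt-Ty (tyrosine) and mt-Tr (arginine), had differences of 0.19 to 0.82 and did not pass. Of these, mt-Tc (0.60, adjusted p = 0.0733) passed with these groups alone (adjusted p = 0.0473) and without HFD replicate 1 (0.0483) or 3 (0.0476). mt-Tr (0.68, adjusted p = 0.258) passed with these groups alone (adjusted p = 0.0273) and without HFD replicate 3 (0.0295). Tested genes under 300 bases that are not members (155) had a median difference of -0.02, beside 0.89 for the tRNAs. Of those short genes 7 rose and 13 fell.

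Ratios between members of 1 library do not depend on how that library was scaled, and some separated groups whose levels overlapped. mt-Nd1 and mt-Nd2 are consecutive complex I genes of the same strand, parted by 3 tRNAs. The ratio of mt-Nd1 to mt-Nd2 FPKM was 1.10, 1.05 and 1.04 in control, 0.817, 0.787 and 0.819 in HFD and 0.610, 0.704 and 0.689 in HFD+Pc libraries. No group overlapped another, and the order ran from control over HFD to HFD+Pc. As a share of the summed FPKM of the 7 abundant mRNAs, mt-Nd1 made up 14.6 ± 0.690% in control, 11.4 ± 0.817% in HFD and 10.8 ± 0.188% in HFD+Pc libraries. Control lay above both other groups, and those overlapped each other. These ratios were chosen among many and carry no test.

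mt-Nd6 set HFD+Pc apart within the mRNAs. Its share of the 7 abundant mRNAs was 7.65, 7.41 and 5.89% in control, 5.32, 6.37 and 6.44% in HFD and 10.4, 10.5 and 8.87% in HFD+Pc libraries. Both other groups lay below every HFD+Pc library. Against mt-Nd5, which overlaps it on the other strand, the ratio was 0.946 ± 0.0349 in control, 0.877 ± 0.0213 in HFD and 1.17 ± 0.0611 in HFD+Pc libraries, again without overlap between any groups. mt-Cytb, the forward-strand gene beyond mt-Te, was the counterpart: its share was 19.6 ± 1.14% in control, 21.9 ± 0.685% in HFD and 17.8 ± 1.46% in HFD+Pc libraries, with HFD above both. The share of mt-Co1 was 28.6 to 32.8% over all libraries. It was 30.9, 32.8 and 31.6% in HFD and lower, without overlap, in HFD+Pc libraries (28.6, 30.2 and 29.7%). For mt-Nd5 the share was 5.95, 7.22 and 7.55% in HFD and higher, without overlap, in HFD+Pc libraries (8.81, 8.60 and 8.07%). Control overlapped both groups for mt-Co1 and for mt-Nd5. Of the 21 possible pairs of the 7 mRNAs, the ratios did not overlap for 7 pairs in HFD against control, 17 in HFD+Pc against HFD and 15 in HFD+Pc against control. Only 3 pairs did so in all 3 comparisons. Each gene enters several pairs, so 1 shifted gene can move several pairs together. No such count was made for pairs of other genes. Of all tested single genes, 32.9%, 19.8% and 42.8% did not overlap in these comparisons, in the order above.

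**Figure D4:**
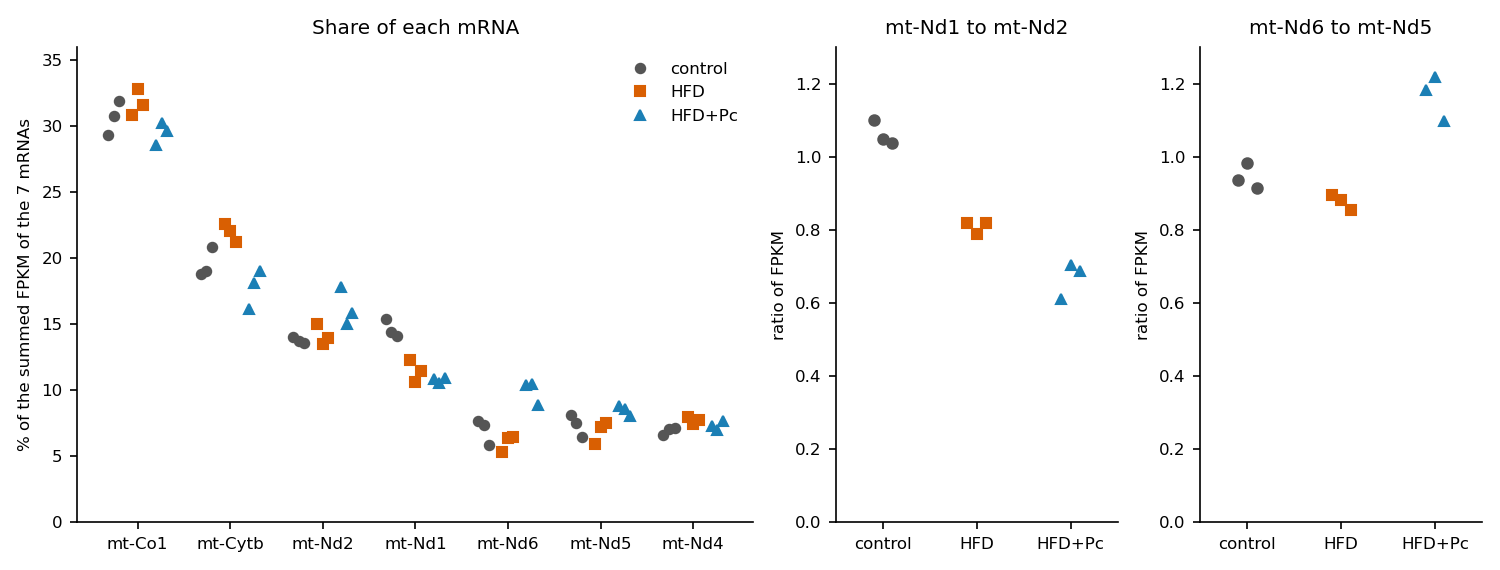
Left, share of each of the 7 abundant mRNAs in their summed FPKM (%), and right, ratio of mt-Nd1 to mt-Nd2 and of mt-Nd6 to mt-Nd5 FPKM, one symbol per library and group, all axes from 0. The mt-Nd1 to mt-Nd2 ratio steps down from 1.04 to 1.10 in control to 0.610 to 0.704 in HFD+Pc libraries, and the mt-Nd6 to mt-Nd5 ratio exceeds 1 in the HFD+Pc libraries alone.

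The values of genes on the reverse strand did not share 1 pattern. Transcription from that strand reaches mt-Tp first, then mt-Te and then mt-Nd6, and the 3 had different patterns. Whether counting used the strand is not given, so these reads can come from RNA of either strand. What transcription of the reverse strand did cannot be read from them. The ratio of mt-Te to mt-Tp was 0.855, 0.871 and 0.609 in control, 0.802, 0.694 and 0.621 in HFD and 0.273, 0.168 and 0.209 in HFD+Pc libraries. Every HFD+Pc library lay below every other library. The ratio of mt-Te to mt-Nd6, adjacent genes, was 0.186 ± 0.0122 in control, 0.256 ± 0.0631 in HFD and 0.0804 ± 0.0260 in HFD+Pc libraries, with no overlap between groups. The ratio of mt-Tp to mt-Cytb was 0.0862 ± 0.00817, 0.0982 ± 0.00452 and 0.208 ± 0.0501 in the same order, also without overlap. Further along the strand, mt-Tc, mt-Ty and mt-Tn form a cluster between mt-Nd2 and mt-Co1, and these neighbours differed too: mt-Tn had 148, 149 and 141 FPKM in HFD+Pc against 68.7 to 78.8 in HFD libraries (0.99 ± 0.36), while mt-Tc (-0.04 ± 0.21) and mt-Ty (-0.21 ± 0.35) overlapped between those groups. The ratio of both rRNAs to the 7 abundant mRNAs was 0.00657 ± 0.00255 in control, 0.00658 ± 0.00185 in HFD and 0.0111 ± 0.00105 in HFD+Pc libraries.

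The nuclear genes that maintain and express the mitochondrial genome were read from lists of replication, transcription, RNA processing and translation factors, 64 of 74 listed genes being tested. Of these, 6 rose and 0 fell in HFD against control, 0 passed in HFD+Pc against HFD, and 16 rose and 2 fell in HFD+Pc against control. These counts stand beside the 9.97%, 0.628% and 23.1% of all genes given above, both directions together. The 6 of 64 in HFD against control were thus near the share of all genes. By direction, 4.61% of all genes were higher and 5.35% lower in HFD against control, and 11.1% and 11.9% in HFD+Pc against control. The list medians were 0.12, 0.06 and 0.12. In a chosen panel, Mtpap, Lrpprc and Pnpt1 rose in HFD+Pc against control, and these did not pass in any comparison: Polrmt (the mitochondrial RNA polymerase), Tfb2m and Tfam (its initiation factors), Twnk and Polg (the replicative helicase and polymerase), and Elac2 and Supv3l1 (tRNA 3′ end processing and RNA decay). Against control their differences were 0.08 to 0.21 in HFD+Pc and -0.12 to 0.18 in HFD. Mterf2, a termination factor family member, differed by 0.57 ± 0.17 in HFD against control (adjusted p = 0.0656).

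Those that rose in HFD and in HFD+Pc, each against control, included Mterf3 (a negative regulator of mitochondrial transcription), Tefm (the elongation factor) and Mgme1 (a nuclease of replication). Mterf3 had 3.20, 2.85 and 2.80 FPKM in control, 4.35, 3.67 and 5.14 in HFD and 4.89, 5.15 and 4.85 in HFD+Pc libraries, and all control libraries lay below all others. It rose by 0.44 ± 0.10 (adjusted p = 0.0290) and 0.60 ± 0.10 (adjusted p = 0.00493). Trmt10c, a subunit of the RNase P that cuts mitochondrial tRNAs at their 5′ end, rose by 0.42 ± 0.11 (adjusted p = 0.0418) and 0.46 ± 0.11 (adjusted p = 0.0158), and Rexo2, an exonuclease that removes short RNA, by 0.43 ± 0.11 and 0.50 ± 0.11. Mtpap, the mitochondrial poly(A) polymerase, passed in HFD+Pc against control (0.44 ± 0.09, adjusted p = 0.00880), as did Lrpprc, which stabilises mitochondrial mRNAs (0.33 ± 0.08, adjusted p = 0.0206), Pnpt1, a subunit of the degradosome (0.43 ± 0.12, adjusted p = 0.0301), and Ptcd2. Fastk and Ptcd1 fell in that comparison, by 0.42 and 0.33. The translation factors Gfm2, Mtif2 and Tsfm rose by 0.35, 0.41 and 0.39. Of the 6 rises in HFD, 0 were called without control replicate 1, control replicate 2 or HFD replicate 3, and 1 to 3 without HFD replicate 1 or 2, HFD+Pc replicate 4 or control replicate 4. The 18 calls in HFD+Pc against control fell to 7 without HFD+Pc replicate 3, 8 without control replicate 1 and 10 without control replicate 2.

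Of 11 listed regulators of mitochondrial content 10 were tested. In HFD against control 1 rose and 1 fell, in HFD+Pc against HFD 0 passed, and in HFD+Pc against control 1 rose and 2 fell, beside the same 9.97%, 0.628% and 23.1% of all genes. Esrra, a nuclear receptor that drives respiratory genes, had 9.59, 8.07 and 8.59 FPKM in control, 5.28, 5.42 and 4.55 in HFD and 3.96, 4.23 and 3.50 in HFD+Pc libraries. No groups overlapped, and it fell by 0.68 ± 0.09 (adjusted p = 0.00667) in HFD and by 0.99 ± 0.09 (adjusted p = 0.00105) in HFD+Pc against control. Its relative Esrrg rose in both, by 0.65 ± 0.14 and 0.73 ± 0.14. The coactivator Ppargc1b fell in HFD+Pc against control (-0.43 ± 0.08, adjusted p = 0.00620), and Ppargc1a did not pass in any comparison.

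Among the nuclear subunits of respiratory complexes I to V, more fell than rose. Of 75 tested, 0 rose and 11 fell in HFD against control, 1 rose and 3 fell in HFD+Pc against HFD, and 5 rose and 27 fell in HFD+Pc against control, with medians of -0.15, -0.02 and -0.18. Over all genes the shares in the same order were 4.61%, 0.182% and 11.1% higher and 5.35%, 0.446% and 11.9% lower. Of 949 tested genes under 1000 bases that are not members, 32, 6 and 63 rose and 59, 19 and 164 fell. The part of gene length in these falls was not tested. In complex I, 3 of 36 nuclear subunits rose in HFD+Pc against control (Ndufab1, Ndufc1 and Ndufs4) and 13 fell. Among those that fell, Ndufc2 had the lowest adjusted p (-0.86 ± 0.09, limma adjusted p = 0.00141). Of the 7 encoded complex I genes 1 rose. For complex IV, 3 of 11 fell (Cox5b, Cox6b1 and Cox7b), where mt-Co2 rose. In ATP synthase 1 of 15 rose and 7 fell, with the lowest adjusted p for Atp5k (-2.78 ± 0.17, adjusted p = 0.000247), and neither encoded subunit passed. The difference in direction between encoded and nuclear subunits was not tested.

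**Figure D5:**
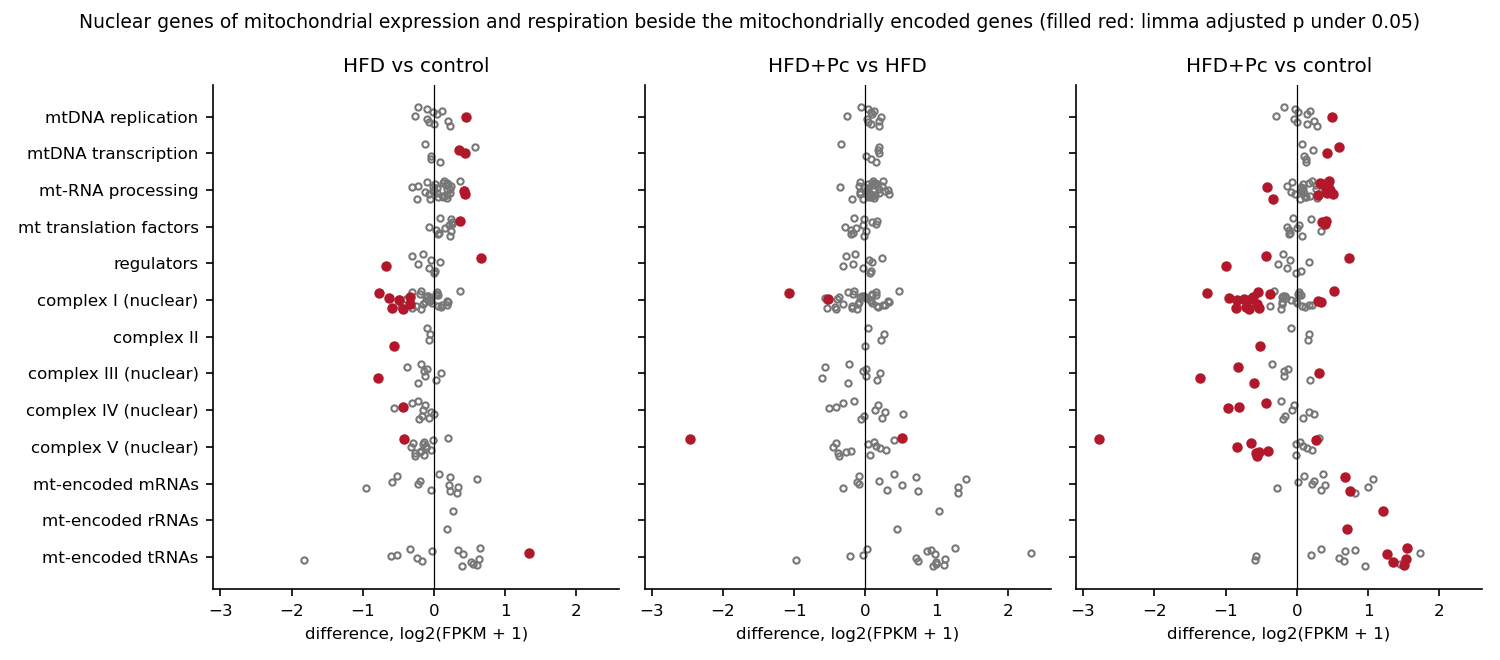
Differences in log2(FPKM + 1) (horizontal axis) of single genes, in 1 panel per comparison and 1 row per list, with the encoded classes in the lowest 3 rows; filled red points have a limma adjusted p under 0.05, and the vertical spread within a row has no meaning. In HFD+Pc against control, 27 of 75 nuclear respiratory subunits lie among the called genes left of 0, and the 9 called encoded members all lie to the right.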

How the data were processed

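The submitters' processing notes name HISAT2 2.0.5 and the build GRCm39. The authors deposited FPKM per gene for 9 libraries, per the file headers. The counting tool, its treatment of strand and of reads with several matches, and the annotation are not given in the sources used here. Symbols came from a gene name table that named 52093 of 53700 Ensembl identifiers. The 10988 genes that reached 1 FPKM in 3 or more libraries entered limma 3.58.1 in R 4.3.3, with log2(FPKM + 1) as response, a trended and robust eBayes step, all groups in 1 model, with Benjamini-Hochberg adjustment over all tested genes and a threshold of 0.05. This scale understates changes of low genes. FPKM of a gene rose in steps of 1 read, so reads could be recovered: with GENCODE M21 lengths, 25346 of 25819 genes above 0 (98.2%) came out whole within 0.02, all 37 members included. limma-voom on these reads, with median-ratio size factors, was added after seeing the data. Copies were searched with BLAST 2.17.0+ in the GENCODE M21 transcripts, an older build, so no genome coordinates are given. The members, gene lists and tests were chosen with earlier results of these data known. Named were all members tested, a panel of regulators, and up to 3 passing genes per list, direction and comparison. Not every passing nuclear subunit so chosen is printed. Slirp and Nrf1 of the panel were below the filter. The test was also run on simulated counts with an equal spread for every gene and no link between genes. That setting differs from these libraries, so it gives no error rate for the calls here.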

Additional observations from a re-analysis of the deposited data

How the results depend on the processing

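Low read counts limit most tRNAs. The treatment of reads shared with nuclear copies limits 5 mRNAs and, in part, mt-Nd4 and mt-Co1. The cause of the changes below was not tested. In HFD against control, the 1 called tRNA became 0 with no filter, 2 with equal sums outside mt- genes and 2 with plain eBayes, and 1 to 2 with 1 library left out. The 6 called mitochondrial expression genes became 1 with a 0.1 FPKM filter, 0 with no filter, 10 with equal sums, 3 with the groups alone and 1 with the replicate block, and 0 to 6 with 1 library left out. In HFD+Pc against HFD, the 0 called tRNAs became 1 with the groups alone and 1 with voom, and 0 to 1 with 1 library left out. In HFD+Pc against control, the 2 called mRNAs became 1 with a 0.1 FPKM filter and 0 with no filter (0 to 3 with 1 library left out). The replicate block left 2 mRNAs, but mt-Nd3 (1.31, adjusted p = 0.0388) passed in place of mt-Nd6, and mt-Tq lost its call, so that the 9 called members became 6. The 2 called rRNAs became 0 with no filter, 0 with the replicate block and 1 with voom (0 to 2). The 5 called tRNAs became 3 with no filter (3 to 7), and the 18 expression genes became 6 with no filter and 2 with the replicate block (7 to 18). Without mt-Co1 the mRNA share of summed FPKM was 8.92% in control, 10.2% in HFD and 10.1% in HFD+Pc libraries.

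Replicate numbers did not pair the libraries: same-numbered libraries correlated at -0.119 to 0.0533 in their deviations from the group means, so the block is given here alone. Signs turned under the replicate block for members that did not pass, in HFD against control for mt-Nd5 (-0.059) and mt-Tr (0.12), in HFD+Pc against HFD for mt-Tc (0.094), mt-Ty (0.11) and mt-Tm (-0.13), and in HFD+Pc against control for mt-Cytb (-0.039), mt-Tg (0.24) and mt-Ta (-0.072). Under equal sums and TPM scaling, HFD against control turned for mt-Nd6 (0.045 and 0.0057) and mt-Tn (0.049 and 0.012), and HFD+Pc against HFD for mt-Tm (-0.039 and -0.031). mt-Cytb in HFD+Pc against control was -0.00038 with TPM scaling. With copies summed, mt-Nd3 in HFD against control was 0.25.

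Leaving out 1 library in turn also changed signs among members that did not pass. For HFD against control the ranges were -0.13 to 0.19 for mt-Nd5, -0.22 to 0.11 for mt-Nd6, -0.17 to 0.56 for mt-Rnr2, -0.11 to 1.06 for mt-Co3, -0.45 to 0.23 for mt-Nd3, -0.47 to 0.45 for mt-Tn, -0.45 to 0.15 for mt-Tl2, -0.97 to 0.19 for mt-Tl1, -0.63 to 0.33 for mt-Tr, -1.08 to 0.082 for mt-Th and -1.02 to 0.18 for mt-Ta. For HFD+Pc against HFD they were -0.22 to 0.018 for mt-Co1, -0.27 to 0.045 for mt-Nd1, -0.24 to 0.055 for mt-Nd4, -0.061 to 1.11 for mt-Co3, -0.22 to 0.15 for mt-Tc and -0.20 to 0.14 for mt-Tm. For HFD+Pc against control they were -0.076 to 0.095 for mt-Cytb, -0.11 to 0.58 for mt-Ty, -0.13 to 0.78 for mt-Atp8 and -0.30 to 0.90 for mt-Ta. The 10 called differences kept their direction in all 20 alternatives each. Of 81 values for the 9 calls in HFD+Pc against control with 1 library left out, 23 lost the call, as did 14 of 99 under the other settings.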

Other observations

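The nuclear copies had their own rows, and some did not follow the mitochondrial gene they match. Gm10925, the copy of mt-Atp6, had 798 FPKM in HFD+Pc replicate 1, where mt-Atp6 itself had 313, whereas in HFD+Pc replicate 4 the copy had 323 and mt-Atp6 537. The library with the highest copy was thus not the library with the highest mt-Atp6. Gm28438, the copy of mt-Nd3, had 113 FPKM in HFD replicate 3, where mt-Nd3 was lowest at 23.2, and 13.5 to 22.4 FPKM in 7 of the other libraries. Gm28437, the copy of mt-Co3, had 87.1 FPKM in HFD replicate 3, within its range of 52.0 to 103, although mt-Co3 reached 370 there. How the reads of each pair were divided was not tested.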
